A study of Mus musculus with 5 samples.

Results

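Cathepsin K and the matrix metalloproteases (MMPs) break down collagen, elastin and other proteins of the extracellular matrix, and the tissue inhibitors of metalloproteases (TIMPs) block the MMPs. RXRα peaks of alveolar macrophages (AMs) were examined at 9 of these genes: Ctsk, Mmp8, Mmp9, Mmp12, Mmp14, Mmp19, Timp1, Timp2 and Timp3. A peak was given to one of them where that gene had the protein-coding transcription start site (TSS) nearest to the midpoint of the peak. This gave 13 of the 14808 peaks in the 4 lists, with 4 of 4751 from WT A and 9 of 9766 from WT G. The 83 peaks of KO A and the 208 of KO G included none.

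The series held 4 RXRα HT-ChIPmentation libraries, in which immunoprecipitated chromatin is made into a sequencing library on the beads by a transposase, and an input control. AMs, the resident macrophages of the airspace, were obtained from mouse lungs by bronchoalveolar lavage and flow cytometry. WT A and WT G had the genotype CD11cCre- Rxrabfl/fl, and KO A and KO G had the genotype CD11cCre+ Rxrabfl/fl, so both groups carried the floxed alleles and differed in the presence of Cre. The methods of the study give C57BL/6J mice that were 9 weeks old for this assay, and the input had no peak list of its own. In the KO, Cre is driven by Cd11c, which other macrophages and dendritic cells also express, and both Rxra and Rxrb are floxed while the antibody was raised to RXRα. The labels do not say whether A and G were separate mice or pools, so the spread between them may be technical. Peak lists hold no transcript levels, so the labelled cell type and the deletion could not be checked against marker genes.

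RXRs are nuclear receptors that bind DNA mostly as heterodimers, with partners such as PPARs and LXRs, at direct repeats of the hexamer AGGTCA. MMPs are zinc enzymes that are secreted or held at the cell surface, and they are made as inactive precursors. Cathepsin K is a cysteine protease that cuts collagen in acidic compartments and is best known from osteoclasts. In the lung these enzymes are studied for their part in emphysema, fibrosis and tissue repair, and macrophages are a main source of Mmp12, the macrophage elastase.

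The lists differed in depth as well as in length. Depth was derived from the fold enrichment and the −log10 p of each peak, since the lists carry no read totals. With WT A set to 1, the depth of WT G was 0.209, that of KO A was 0.572 and that of KO G was 0.75. WT G, the longest list, was thus the shallowest library, 4.78-fold below WT A. The weakest summit of a list rested on 10 fragments for either A library, on 5 for WT G and on 8 for KO G. Differences between WT A and WT G are therefore given throughout with both values, and the part of depth in them was not tested.

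The sequences at the summits are shown first, since the peaks of Ctsk, Mmp19 and Mmp9 are what the data hold on these genes. All are from mm10 (GRCm38.p6, RefSeq assembly), on the plus strand, and none overlaps an annotated exon. The first 2 run from 50 bp before the first summit to 50 bp after the last, for the strongest peak of each WT list in the region that both lists share. The next 2 are the Mmp9 summits with 50 bp to their left and right, and the last is the Ctsk promoter sequence under a WT G peak, up to the base before the TSS. Capitals mark matches to the C/EBP motif, TTGCNNAA or TTACNNAA, on either strand. C/EBP factors are leucine zipper proteins that set macrophage gene expression together with PU.1.
Ctsk region, chr3:95512048-95512280: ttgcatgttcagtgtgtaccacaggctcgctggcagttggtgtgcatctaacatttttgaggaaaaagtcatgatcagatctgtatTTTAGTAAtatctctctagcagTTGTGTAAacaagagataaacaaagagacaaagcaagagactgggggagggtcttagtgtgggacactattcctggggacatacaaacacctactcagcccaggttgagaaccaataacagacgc
Mmp19 region, chr10:128780080-128780270: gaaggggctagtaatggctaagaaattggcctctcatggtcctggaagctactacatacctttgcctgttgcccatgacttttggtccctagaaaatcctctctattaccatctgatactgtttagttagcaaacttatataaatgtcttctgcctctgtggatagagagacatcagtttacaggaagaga
Mmp9 WT A summit, chr2:164943051-164943151: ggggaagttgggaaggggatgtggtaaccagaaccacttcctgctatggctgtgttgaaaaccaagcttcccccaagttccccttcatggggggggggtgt
Mmp9 WT G summit, chr2:164943332-164943432: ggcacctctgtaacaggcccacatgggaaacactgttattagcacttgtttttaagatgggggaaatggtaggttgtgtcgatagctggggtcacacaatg
Ctsk promoter, chr3:95499128-95499255: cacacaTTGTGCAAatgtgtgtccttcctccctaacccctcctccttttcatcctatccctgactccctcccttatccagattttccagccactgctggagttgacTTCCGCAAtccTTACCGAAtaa

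The first comparison was between WT and KO. The WT libraries had 4 (A) and 9 (G) peaks at the 9 genes, a mean of 6.5 ± 3.54 (SD, n = 2), and the KO libraries had 0 each. The groups did not overlap. The difference of 6.5 peaks gave p = 0.333 in an exact permutation test (two-sided), which is the smallest p that 2 libraries against 2 can give. The members with at least 1 peak were 3 of 9 in WT A, where 10.4% of the 21924 protein-coding genes were nearest to a peak. They were also 3 of 9 in WT G, against 16.6% of all genes. In KO A they were 0 of 9 against 0.351%, and in KO G 0 of 9 against 0.858%. At such low shares, 0 of 9 says little about these genes. Ctsk, Mmp9 and Mmp19 were the 3 genes in both WT lists. Mmp8, Mmp12, Mmp14, Timp1, Timp2 and Timp3 were nearest to no peak in any list.

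**Figure D1:**
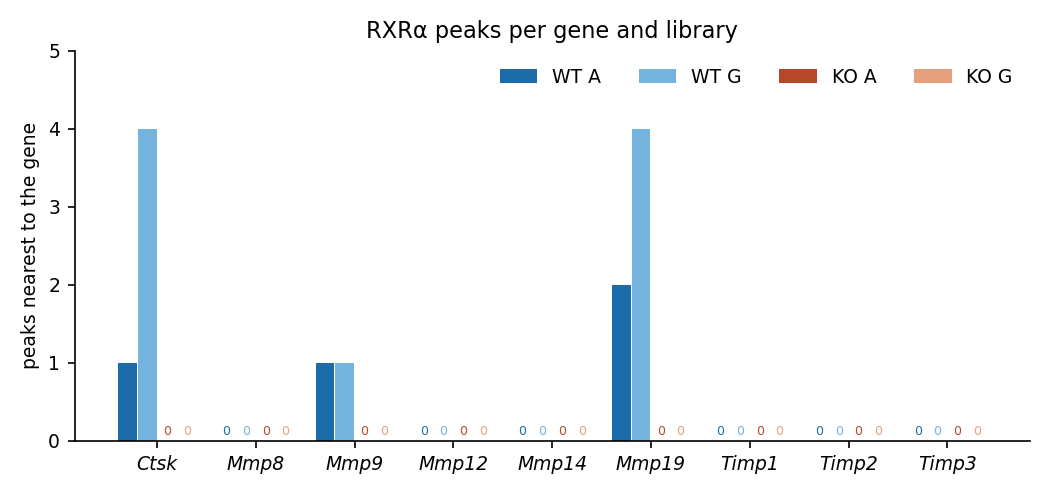
Number of RXRα peaks nearest to each of the 9 genes (bars, 1 library each), with zeros printed. Peaks stood at Ctsk, Mmp9 and Mmp19 in WT A and WT G, and at none of the genes in KO A or KO G.

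Ctsk, which encodes cathepsin K (ENSMUSG00000028111.4, chr3:95499256-95509362, plus strand), had 1 peak in WT A and 4 in WT G. One region was in both WT lists. It lay at chr3:95511500-95512380, in intergenic sequence 2.14 kb past the end of the gene and 12.7 kb from its TSS. The next nearest TSS was that of Ctss, the gene of cathepsin S, 14.8 kb from the middle of the region. Assignment to Ctsk rather than Ctss thus rested on the smaller of 2 similar distances.

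In WT A the peak of this Ctsk region ran from 95511870 to 95512146, with a −log10 q of 6.16, a fold enrichment of 6.32 and 15 fragments at the summit. In WT G it spanned 881 bp from 95511500 to 95512380, with a −log10 q of 8.04, a fold enrichment of 7.60 and 12 fragments. The WT A peak of 277 bp lay wholly inside the WT G peak, and the summits, at 95512098 and 95512230, were 132 bp apart. Within its list the WT A peak was in the middle (51.9% of WT A peaks had a higher −log10 q), and the WT G peak was in the upper part (16.7% higher). Neither KO list had a peak there.

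The other 3 Ctsk peaks were in WT G and not in WT A, and all lay around the promoter. One covered the TSS (chr3:95499128-95499417), with a −log10 q of 3.61, a fold enrichment of 5.16 and 7 fragments. A second lay at -1.18 kb (chr3:95497940-95498204), with a −log10 q of 6.88, a fold enrichment of 7.09 and 10 fragments. The third lay at -2.1 kb (chr3:95497044-95497258), with a −log10 q of 4.64, a fold enrichment of 5.80 and 8 fragments. The latter 2 are also within the termination window of Arnt, the gene next to Ctsk, since Arnt ends there. WT A, the deeper library, had no peak at any of these 3 places. The nearest peak of another gene was the only peak of Ctss, in WT G, at chr3:95521192-95521406, 22.0 kb from the Ctsk TSS and -5.49 kb from that of Ctss (−log10 q 4.64).

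**Figure D2:**
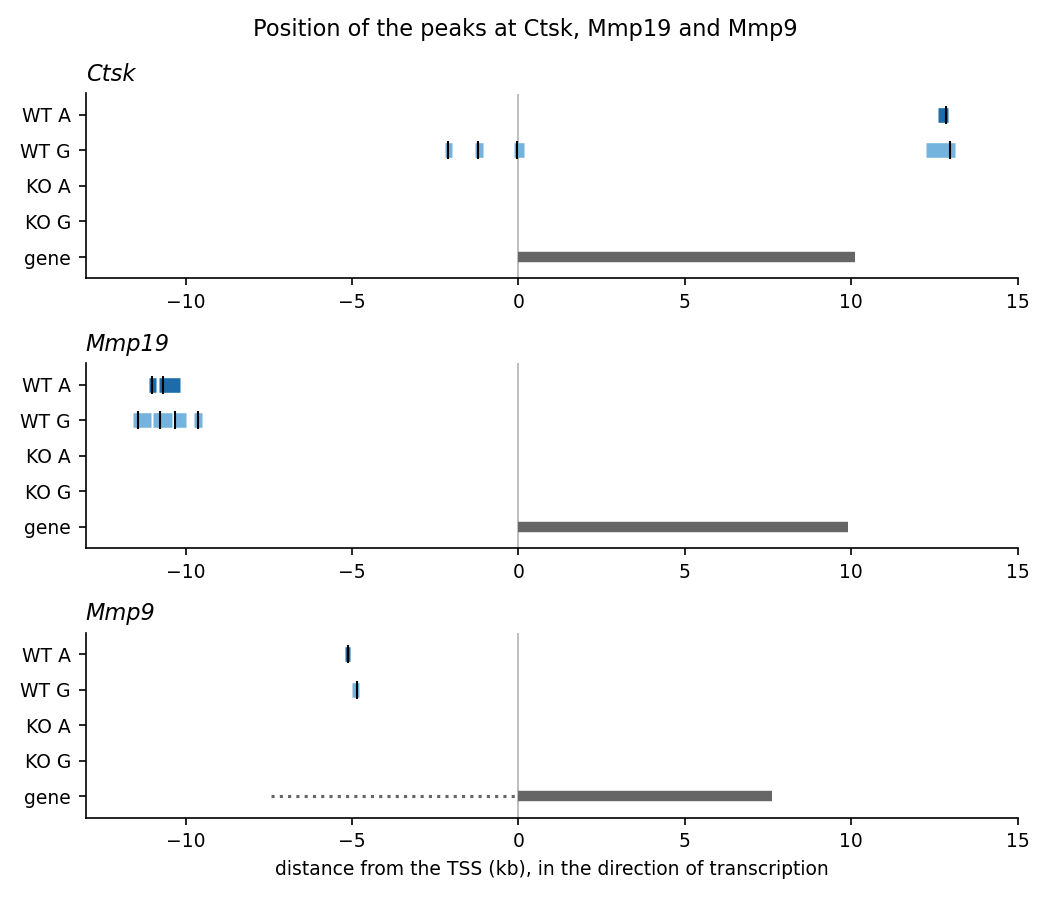
Peaks (boxes) and their summits (black lines) around Ctsk, Mmp19 and Mmp9 in the 4 libraries, in kb from the TSS, with the gene as a grey bar and the longer Mmp9 gene model dotted. The Ctsk region of both WT lists lies past the gene at 12.7 kb, the Mmp19 region lies upstream at -10.8 kb, and the Mmp9 peaks lie upstream at -5.13 kb and -4.89 kb.

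Mmp19, which encodes an MMP of the basement membrane (ENSMUSG00000025355.7, chr10:128790910-128800824, plus strand), had the widest region of these genes. It covered 1597 bp at chr10:128779324-128780920, in intergenic sequence -10.8 kb from the TSS, and only 3.21% of the 3423 regions that the WT lists share were wider (median 574 bp). The Ctsk region of 881 bp was less extreme, with 21.0% of the regions wider. The Mmp19 region joined 2 WT A peaks and 3 WT G peaks. The next nearest TSS, of Tmem198b, was 24.2 kb from its middle, so Mmp19 was the nearest gene by a wide margin.

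The strongest WT A peak of Mmp19 ran from 128780105 to 128780738, with a −log10 q of 8.06, a fold enrichment of 7.50 and 18 fragments. The strongest WT G peak ran from 128779922 to 128780502, with a −log10 q of 10.5, a fold enrichment of 9.03 and 13 fragments. These were the highest values of any of the 13 peaks in each list. Their summits, at 128780220 and 128780130, were 90 bp apart, and the peaks shared 398 bp. In WT A 28.1% of all peaks had a higher −log10 q, and in WT G 9.11% did.

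The remaining Mmp19 peaks were weaker and flanked these. In WT A there was 1 from 128779818 to 128780030 (−log10 q 6.16, 15 fragments). In WT G there were 3, of which 2 lay in the region (−log10 q 5.73 and 9 fragments, −log10 q 4.64 and 8 fragments). The last, at chr10:128781163-128781402 and -9.63 kb, had no WT A peak beneath it (−log10 q 3.87, 8 fragments). None of the 6 Mmp19 peaks was at the promoter or in the gene.

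Mmp9, which encodes gelatinase B (ENSMUSG00000017737.2, chr2:164940780-164955850, plus strand), had 1 peak in each WT list. The WT A peak ran from 164943024 to 164943153 at -5.13 kb, with a −log10 q of 5.86, a fold enrichment of 6.08 and 15 fragments. The WT G peak ran from 164943224 to 164943438 at -4.89 kb, with a −log10 q of 3.59, a fold enrichment of 5.06 and 7 fragments. They missed each other by 70 bp and their summits were 281 bp apart, so Mmp9 had no region in both lists. Both were among the weaker peaks, with 61.3% of the WT A list and 84.7% of the WT G list higher by −log10 q. The position depends on the gene model. By the basic GENCODE set both peaks are intergenic and upstream of the gene, while a longer Mmp9 transcript, whose start is at -7.44 kb, puts both in an intron, 2.31 and 2.55 kb from that start.

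**Figure D3:**
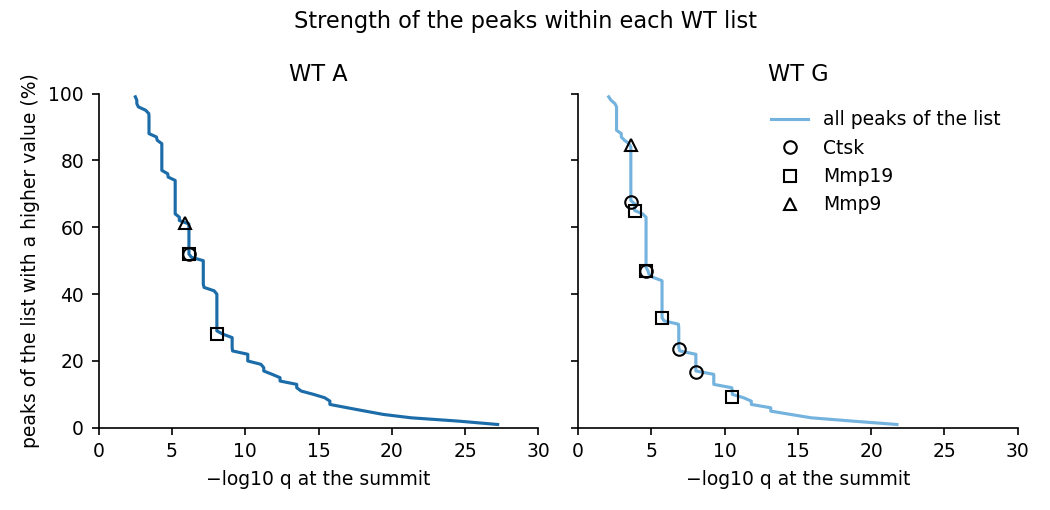
Share of the peaks of each WT list (vertical axis, percent) with a −log10 q above the value on the horizontal axis, with the peaks of Ctsk, Mmp19 and Mmp9 as symbols. The strongest peak in each list is at Mmp19, with 28.1% of the WT A list and 9.11% of the WT G list above it, and the Mmp9 peaks are among the weaker ones.

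Across the 3 genes, the 4 WT A peaks had −log10 q values from 5.86 to 8.06, fold enrichments from 6.08 to 7.50 and 15 to 18 fragments. The 9 WT G peaks ranged from 3.59 to 10.5, from 5.06 to 9.03 and from 7 to 13 fragments. The WT A list had a median −log10 q of 7.14 and the WT G list one of 4.64, so the members lie in the ordinary range of both lists. By annotation 10 of the 13 peaks were intergenic, 2 were at the Arnt termination window and 1 was at a promoter. Of the 4 WT A peaks 3 overlapped a WT G peak, and of the 9 WT G peaks 4 overlapped a WT A peak. Cutting WT G to the 4751 peaks of WT A falls within 1588 peaks tied at a −log10 q of 4.64. Above that value, Ctsk and Mmp19 kept 2 of their 4 WT G peaks each, and 3 of 4 with the tied peaks kept, while Mmp9 kept 0 of 1 either way. The Ctsk peak at -1.18 kb, which WT A lacks, was among those that remained, with 23.5% of the WT G list higher by −log10 q.

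Regions in both WT lists were next set beside all 3423 such regions. They were nearest to 2 of the 9 genes, Ctsk and Mmp19, where 8.82% of all protein-coding genes had one. Where peaks had to share 50% of both lengths, Mmp19 kept its region and Ctsk, whose WT A peak is much the shorter, did not. Each had 1, which is the median over the 1933 genes with any. The Ctsk region was below the middle by its WT A value, with 61.2% of the shared regions higher, and near the middle by its WT G value, with 41.8% higher. The Mmp19 region was above the middle in both, with 36.0% and 25.0% of the shared regions higher. Both regions had no KO peak (2 of 2), against 94.1% of all such regions. The share among the members was thus near that of all regions.

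To set the KO lists beside these peaks by depth, the WT fragments at each summit were scaled by the ratio of depths. From WT A the 4 peaks would hold between 8.58 and 10.3 fragments in KO A, whose weakest peak had 10, so 1 of 4 reached that level. In KO G the same peaks would hold between 11.2 and 13.5 fragments, and all 4 reached its lowest value of 8. From WT G all 9 peaks would be above the lowest value of both KO lists, with 19.1 to 35.5 fragments in KO A and 25.1 to 46.5 in KO G. The peak that reached the KO A level from WT A was the strongest one of Mmp19. These summits were chosen by being called in WT, and the part of depth in the absence of KO peaks was not tested. The 2 WT libraries themselves differed on this scale. Per WT A depth, the strongest Ctsk peak held 15 fragments in WT A and 57.3 in WT G, the strongest Mmp19 peak 18 and 62.1, and the Mmp9 peak 15 and 33.4. These WT G values are on the high side, since fragment length is left out here too.

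**Figure D4:**
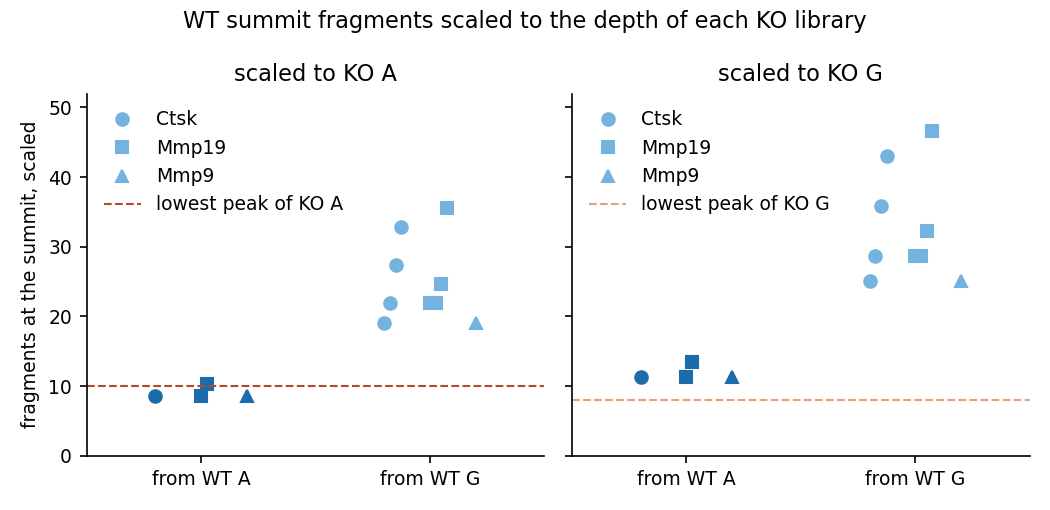
Fragments at the summits of the WT peaks after scaling to the depth of KO A (left) and KO G (right), with a dashed line at the fewest fragments of any peak in that KO list. The scaling leaves out differences in fragment length. From WT A, 1 of 4 peaks reaches the line in KO A and 4 of 4 in KO G, and from WT G all 9 peaks are above both lines.

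The 6 other genes were asked for the nearest peak at any distance. Mmp8, the neutrophil collagenase (ENSMUSG00000005800.3, chr9:7558456-7568485), had its nearest WT G peak at -32.3 kb and its nearest WT A peak 6029 kb away. That WT G peak, at chr9:7526091-7526308, had a −log10 q of 3.61 and 7 fragments, and was nearest to Mmp10, at 23.8 kb. Mmp12 (ENSMUSG00000049723.14, chr9:7344381-7369499) had the same WT G peak as its nearest, at 179 kb, and its nearest WT A peak was 6240 kb away. Both genes lie in a cluster of 9 Mmp genes on chromosome 9, from Mmp13 to Mmp7 (chr9:7272514-7699585). This cluster of 427 kb held 0 of the 241 WT A peaks on the chromosome and 1 of the 481 WT G peaks. The KO A and KO G lists had 3 and 10 peaks on the chromosome, and 0 in the cluster. The Mmp8 and Mmp12 genes were thus far from peaks in the deeper WT library, and a single weak WT G peak stood within the cluster. The study describes RXRα binding, beside that of STAT5, SMAD4 and RBPJ, in the vicinity of Mmp8, and gives no distance. In the deposited RXRα lists no peak was nearest to Mmp8, which differs from that description unless the vicinity reaches past -32.3 kb.

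Mmp14, which encodes a membrane-bound MMP that activates other MMPs (ENSMUSG00000000957.11, chr14:54431612-54445364), had its nearest WT G peak at -26.1 kb, in an intron of Slc7a7 (−log10 q 2.63, 6 fragments). A further WT G peak of the same −log10 q lay at 31.7 kb, at the Lrp10 promoter. Its nearest WT A peak was 323 kb away. A stronger WT G peak lay at -70.8 kb, at the Oxa1l promoter (−log10 q 5.73, 9 fragments). Mmp14 therefore had WT G peaks on both sides, each nearest to another gene.

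The TIMP genes had no peak of their own. Timp1 (ENSMUSG00000001131.11, chrX:20870166-20874735) had its nearest WT G peak at 60.2 kb, in an intron of Cfp, the gene of properdin (−log10 q 6.88, 10 fragments), and its nearest WT A peak at -7588 kb. Timp2 (ENSMUSG00000017466.9, chr11:118301069-118355740, minus strand) had peaks of both WT lists at a similar distance, -103 kb in WT A (−log10 q 6.16) and -104 kb in WT G (−log10 q 10.5), and both were nearest to Engase. Timp3 (ENSMUSG00000020044.13, chr10:86300372-86349506) had the widest space to its neighbours, 238 kb, and its nearest peaks were at -1138 kb in WT A and -348 kb in WT G. A wide space makes a gene more likely to be the nearest to a peak, and Timp3 was nearest to none.

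Within 100 kb of the TSS, whatever the nearest gene, 3 of the 9 members had a WT A peak, against 29.6% of all protein-coding genes, and 6 had a WT G peak, against 43.6%. The median distance to the nearest WT A peak was 323 kb over the 9 members and 237 kb over all genes. For WT G it was 32.3 kb over the members and 131 kb over all genes. By these medians the members were farther than the typical gene from WT A peaks and closer than the typical gene to WT G peaks. In the KO lists no member had a peak within 100 kb, where 1.15% of all genes had one from KO A and 2.81% one from KO G. For KO G the median distance was 4319 kb over the members and 4118 kb over all genes, and for KO A it was 14471 kb over the 8 members with a value and 9219.5 kb over all genes. Members and all genes were thus both far from KO peaks. The closest KO peak to a member was at -487 kb from the Mmp19 TSS, in KO G. KO A had no peak on chromosome X, so Timp1 has no value there. The strongest peaks within 100 kb of any member were nearest to Pltp, the gene of phospholipid transfer protein, which lie from -88.4 to -80.3 kb of the Mmp9 TSS in WT A. Their highest −log10 q was 15.8 (WT A) and 18.8 (WT G).

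**Figure D5:**
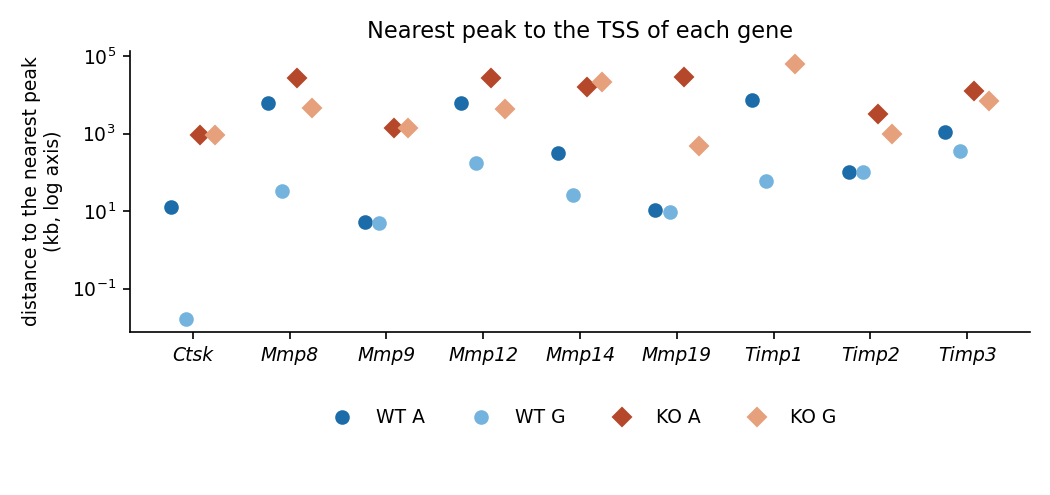
Distance in kb (log axis) from the TSS of each gene to the midpoint of the nearest peak in each library, whichever gene that peak is nearest to. WT peaks are within 13 kb at Ctsk, Mmp9 and Mmp19, and the nearest KO peak to any of the genes is at -487 kb, from Mmp19.

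The summits were searched for the DNA motifs of RXR dimers and of macrophage factors, within 50 bp of each summit and on both strands. Direct repeats were 2 copies of AGGTCA with 1 base between them (DR1), 2 bases (DR2), 4 bases (DR4) or 5 bases (DR5), with at most 2 mismatches in all. The others were the single hexamer AGGTCA, GAGGAAGT for PU.1, the C/EBP form given above, TGANTCA for AP-1 and TGTGGTT for RUNX, with none. For a region in both WT lists, the window at the summit of its stronger peak was read, which is the WT G summit for Ctsk and for Mmp19. In these windows DR1 was in 6.34% of the 3423 regions and in 0 of the 2 member regions. The single hexamer was in 15.2% of regions, C/EBP in 19.4%, AP-1 in 7.51%, RUNX in 5.93% and PU.1 in 4.38%, and the windows of the 2 member regions held none of them. With shares of this size, 0 of 2 says little.

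Over all 13 summits of the members, the matches found were at Ctsk. Its WT A summit had a C/EBP match at 95512134-95512141, on the minus strand and 39 bp away, in capitals in the Ctsk region above. Its promoter peak in WT G had C/EBP matches at 95499234-95499241 (minus strand) and 95499245-95499252 (plus strand), 19 and 30 bp from the summit and just before the TSS. The WT G peak at -1.18 kb had an AP-1 match, TGAGTCA, at 95498084-95498090, 39 bp away. The other capitals in the Ctsk sequences, at 95512156-95512163 and 95499134-95499141, lie more than 50 bp from a summit. The 6 Mmp19 and 2 Mmp9 summits held no match. A match is a run of letters and does not show that the factor binds there.

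The other genes of matrix breakdown were counted in 4 lists, with 58 of 59 genes in the annotation. A region in both WT lists was nearest to 9 of the 58, against the 8.82% of all genes given above. Of 18 genes made up of the other Mmp genes and Timp4 there were 0, and of 7 cystatins, which inhibit cathepsins, there were 0. Of 13 other cathepsins there were 4, and of 20 genes of sheddases, plasminogen activation and related enzymes there were 5. The 9 genes with a region were thus from the cathepsin and matrix lists. At a share of 8.82%, 0 of 18 and 0 of 7 say little about MMPs or cystatins. Mmp19, an MMP with such a region, is counted among the members and not here.

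Among the cathepsins, Ctsd, the gene of the lysosomal aspartic protease cathepsin D, had 7 such regions. The strongest lay at -11.3 kb (chr7:142398928-142399794), and its −log10 q was 15.8 by the WT A list and 10.5 by the WT G list. The values that follow for other genes are −log10 q in the same order. Ctsb, of cathepsin B, had 2 (strongest at 9.75 kb, 14.7 and 10.5). These exceed the Ctsk region, at 6.16 and 8.04. Ctsz, of cathepsin Z, had 2 regions (strongest at 1.24 kb, 8.06 and 13.2). Ctsc, of cathepsin C, which activates granule serine proteases, had 1 at -0.47 kb (6.16 and 9.26). Ctsd alone among the cathepsins had a KO peak, in KO G, at 1 of its 7 regions.

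Among the matrix genes, Lgmn, of the lysosomal protease legumain, had a region at 56.1 kb (15.8 and 11.8). Adam17, of the sheddase of TNF, had 2 (strongest at 3.06 kb, 8.06 and 8.04), and Furin, which activates precursors including Mmp14, had one at 1.22 kb (9.11 and 3.61). In all, 10 of the 58 genes had a WT A peak, against 10.4% of all protein-coding genes, and 16 a WT G peak, against 16.6%. From KO A 0 of the 58 had a peak, against 0.351% of all genes, and from KO G 2 had one, against 0.858%. At such low shares, 0 of 58 says little about these genes.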

How the data were processed

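RXRα HT-ChIPmentation was performed on AMs in 4 libraries, grouped by their labels as WT (A, G) and KO (A, G). The submitters' notes name CASAVA, bcl2fastq, cutadapt, Bowtie2, SAMtools, MACS3 and mm10. The authors called peaks per library against the input (q 0.05) without pooling. The deposited fold enrichment is the ratio, at the summit, of ChIP pileup to background, with 1 added to both. The deposited −log10 p and −log10 q belong to the same point, the deposited score is 10 times the −log10 q without its decimals, and the summit is stored as an offset from the start. The lists hold no read counts per peak, so the read count model of the study was replaced by peak numbers and overlap.

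Peaks were assigned by midpoint to GENCODE M21 basic TSSs of protein-coding genes, and an overlap of 1 bp or more made peaks shared. Promoters covered the 1 kb before a TSS and the 100 bp after it, and termination windows the 100 bp before a transcript end and the 1 kb after it. Fragments at summits were solved from fold enrichment and p as a Poisson tail (tolerance 0.01 in −log10 p, all peaks solved), and depth came from the genome-wide background per shortest peak length. WT A pileups, which the peak caller had scaled by 0.884, were set back to whole fragments. Depths are derived and were not checked against read totals, as the study's supplementary quality metrics were not used. Steps were tested on simulated data. The software was scipy 1.17.1, pandas 2.3.3, numpy 2.4.6 and matplotlib 3.10.9 under Python 3.11.15.

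The members, gene lists and motifs were chosen with earlier results of these data known. The study displayed Ctsk and Mmp8 with RXRα binding, though no list here had a peak nearest to Mmp8. The counts are therefore no independent evidence. All members were named, with every member region of both WT lists and, of each other list, up to 4 genes by the weaker of the 2 −log10 q values, of which 1 gene is not reported here. Alternatives were the point and transcripts used for assignment, distance, overlap, list strength and length, motif window and mismatches, and single libraries left out.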

Additional observations from a re-analysis of the deposited data

How the results depend on the processing

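There were 16 settings, which gave 194 values for 24 results beside those reported, and none reversed. Where peaks had to share 50% of both lengths, 1 member region was in both WT lists, for 1 gene (Mmp19), and 1 such region had no KO peak. Leaving out 1 library each, the mean WT minus KO difference in member peaks ran from 4 (without WT G) to 9 (without WT A), as did the member regions of the WT lists. Those with no KO peak ran from 2 (without KO A, and without KO G) to 9 (without WT A), with 4 without WT G. The other protease genes ran from 10 (without WT G) to 16 (without WT A). With a WT library left out, a region needs a peak in the other WT list alone. With only peaks of −log10 q of at least 5, and likewise with WT G cut to as many peaks as WT A, Ctsk had 2 WT G peaks, Mmp19 had 2 and Mmp9 had 0. The latter limit falls within tied peaks, and with these kept, a setting chosen after seeing the data, Ctsk had 3, Mmp19 had 3 and Mmp9 had 0. The letters A and G are shared by WT and KO, and nothing says that they mark a shared batch. With the letter as a block, the paired difference was 6.5 peaks (4 for A, 9 for G), exact permutation p = 0.5. WT G peaks rest on as few as 5 fragments.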

Other observations

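Promoters were searched for the same motifs, in 32851 RefSeq promoter windows around gene starts (GRCm38.p6), of which 8 belong to 7 of the 9 genes (all but Mmp9 and Mmp19). A C/EBP match was in 18.5% of all promoters and in those of Ctsk, Mmp8 and Mmp12. A PU.1 match was in 3.20% of all promoters and in those of Mmp8 and Mmp12. The hexamer AGGTCA, at 16.3%, AP-1, at 7.81%, and DR4, at 3.02%, had matches in the Mmp12 promoter alone of these genes. DR1, at 3.86%, had none. Mmp8 and Mmp12 thus had the most kinds of match of these promoters, and Mmp8 had PU.1 beside the C/EBP match that Ctsk also had. Of the genes with a peak, only Ctsk had a promoter window here. Matches were therefore not compared between genes with and without peaks. A match is a description of letters, not of binding.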
